A study of Mus musculus with 12 samples.

Results

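The comparison set 2 histone marks side by side in unmodified E14TG2a cells, a mouse embryonic stem cell line kept in serum medium with LIF, the MEK inhibitor PD0325901 and the GSK3 inhibitor CHIR99021. The members are the 4 wild-type (WT) samples of H3K4me3 and H3K27ac, 2 replicates a mark, out of 12 samples in the series. The other samples carry the Alkbh5 del-cIDR genotype or profile H3K9me3. Both marks were profiled by CUT&Tag, in which an antibody brings a transposase to chromatin so that sequencing adapters are inserted beside the mark. Each sample came with its own list of narrow peaks. On chromosomes 1 to 19, overlapping peaks of the 2 replicates of a mark were merged into regions, and a region was kept where both replicates had a peak. This left 17179 H3K4me3 regions and 15426 H3K27ac regions. The labels do not say whether replicates came from separate cultures, so p-values measure only the spread between these samples, which may be technical.

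Trimethylation of lysine 4 on histone H3 (H3K4me3) is laid down by SET1 and MLL complexes around the start sites of genes, above all at promoters rich in CpG. In embryonic stem cells it is found at active promoters and also at bivalent promoters of developmental genes, which carry the repressive mark H3K27me3 as well. Acetylation of lysine 27 (H3K27ac) is written by p300 and CBP, competes with methylation of the same residue, and marks active promoters and active enhancers. The comparison asks where the 2 marks coincide and where each stands alone. The gene table at hand is on another genome build than the peaks, so regions are given by position (GRCm39, counted from 1) and not by gene. Stem cell marker genes were for the same reason not used here to check the cell type.

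Single H3K27ac lists held more, narrower peaks than single H3K4me3 lists. The H3K4me3 lists held 19055 and 19242 peaks on chromosomes 1 to 19, and the H3K27ac lists held 25153 and 22810. The median peak width was 967 and 972 bp for H3K4me3, and 572 and 545 bp for H3K27ac. The marks did not overlap in either measure, and the H3K4me3 replicates lay closer together than the H3K27ac replicates. Because of the narrower peaks, the longer H3K27ac lists covered less of the genome, 17.2 and 14.8 Mb against 19.6 and 19.9 Mb. In means, H3K27ac had 23981.5 ± 1657 peaks and H3K4me3 19148.5 ± 132 (SD, n = 2 each, exact permutation p = 0.333). For median width the means were 558.5 ± 19.1 and 969.5 ± 3.54 bp, with exact permutation p = 0.333 (SD, n = 2 each). Covered length averaged 15.98 ± 1.73 Mb for H3K27ac and 19.7 ± 0.246 Mb for H3K4me3, again with exact permutation p = 0.333 (SD, 2 lists a mark). This two-sided exact permutation test over 2 lists against 2 cannot give a smaller p, and over the 6 quantities tested the adjusted p was 0.333 for each. The order in number turned at a stricter cut. Of peaks with a −log10 q of at least 5 (q being the p-value adjusted by the authors' caller), the H3K4me3 lists held 16670 and 16831. The H3K27ac lists held 12665 and 11449. Depth is unknown, so this cut is not known to be equally strict for both marks.

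**Figure D1:**
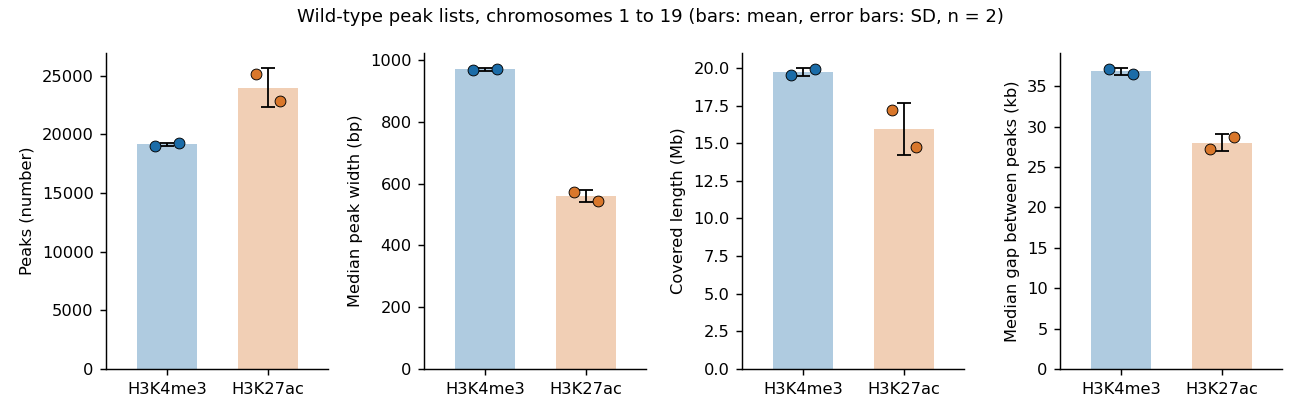
Values of each WT peak list on chromosomes 1 to 19, by mark: number of peaks, median width in bp, covered length in Mb and median gap between neighbouring peaks in kb. Points are the 2 replicates, bars the mean and error bars the SD. H3K27ac lists have more peaks (25153 and 22810 against 19055 and 19242), which are narrower and closer together, and cover less.

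H3K4me3 peaks had the higher fold enrichment in the middle of their lists, and alike folds at the top. The deposited fold enrichment, a ratio given by the authors for each peak, had a median of 8.67 and 8.58 in the H3K4me3 lists and 4.75 and 4.91 in the H3K27ac lists. The median −log10 q was 31.9 and 32.8 for H3K4me3 and 5.05 and 5.03 for H3K27ac. A −log10 q of at least 5 was reached by 87.5% of the peaks in both H3K4me3 lists, and by 50.4% and 50.2% of the peaks in the H3K27ac lists. About as many H3K27ac peaks thus lay under that line as over it. Both marks had lists that ran down to a −log10 q of 1.30 to 1.33, so weaker sites are outside the data. These values come from separate lists and are given as the authors' own, without a test between marks. The highest folds were 28.5 and 26.7 for H3K4me3 and 28.1 and 29.9 for H3K27ac.

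H3K4me3 sites recurred between replicates more often than H3K27ac sites. Of 20992 merged H3K4me3 regions 81.8% had a peak in both replicates, against 47.9% of 32182 H3K27ac regions. In H3K4me3, 1797 regions were found only in replicate 1 and 2016 only in replicate 2. In H3K27ac these were 9615 and 7141. The replicates shared 79.0% of their bases for H3K4me3 and 44.3% for H3K27ac, taken over the bases in either list. At regions found in both replicates, fold ranked with a Spearman's rho of 0.93 between replicates for H3K4me3 and 0.68 for H3K27ac, as a description over regions of the same 2 samples. Regions of a single replicate were weak in both marks. Their median fold lay at percentiles 11.5 and 10.5 of the H3K4me3 lists and 30.7 and 28.2 of the H3K27ac lists. Regions found in both replicates lay at percentiles 54.8 and 55.2 for H3K4me3, and 64.8 and 62.2 for H3K27ac. Requiring both replicates therefore turned the order of the marks: H3K27ac had the longer lists and the fewer replicated regions. With only peaks of a −log10 q of at least 5, the H3K27ac regions found in both replicates numbered 8816.

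The overlap of the marks was partial. Of the H3K27ac regions, 7312 (47.4%) overlapped an H3K4me3 region by at least 1 bp, and 8114 did not. Of the H3K4me3 regions, 7252 (42.2%) overlapped an H3K27ac region, and 9927 did not. In bases the marks shared 6.10 Mb, which was 41.6% of the H3K27ac total and 30.2% of the H3K4me3 total. Sites paired almost 1 to 1. Only 67 H3K4me3 regions held 2 H3K27ac regions, no region held more, and 7 H3K27ac regions reached 2 H3K4me3 regions.

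Counted in single lists, the overlap share was close between the marks. Of the peaks in the H3K27ac lists 36.3% and 39.0% lay on a replicated H3K4me3 region. Of the peaks in the H3K4me3 lists 40.4% in each replicate lay on a replicated H3K27ac region. Both lists of a mark were set against the same regions of the other mark, so the SD leaves out the spread of those regions. The means were 37.7% ± 1.94 for H3K27ac and 40.4% ± 0.00550 for H3K4me3 (SD, n = 2 each, exact permutation p = 0.333). The sign of this difference changed with the peaks used: with peaks of a −log10 q of at least 5 it was 18.7 percentage points in favour of H3K27ac, and with all lists cut to 19055 peaks it was 5.74 points.

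Lack of a replicated H3K27ac region did not always mean lack of a peak. Among the 9927 H3K4me3 regions without H3K27ac, 2919 (29.4%) had a peak in 1 of the 2 H3K27ac lists, 103 had a peak of both lists that did not meet, and 6905 (69.6%) had none. In the reverse class such peaks were rarer. Among the 8114 H3K27ac regions without H3K4me3, 926 (11.4%) had a peak in 1 H3K4me3 list and 7176 (88.4%) had none. The del-cIDR samples, which played no part in these classes, gave the same order. A peak in at least 1 of their 2 H3K27ac lists was found at 51.4% of the H3K4me3 regions without H3K27ac, and a peak in at least 1 of their H3K4me3 lists at 11.1% of the H3K27ac regions without H3K4me3. Over all WT regions these shares were 71.3% of H3K4me3 and 52.0% of H3K27ac. The del-cIDR H3K27ac lists were also the longer, with 27883 and 32353 peaks against 18367 and 18794 for H3K4me3. In WT, regions found in a single replicate were likewise more numerous for H3K27ac (9615 and 7141) than for H3K4me3 (1797 and 2016). The part of list length and of such single-replicate regions in the order was not tested in either genotype.

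Stronger regions were more often shared. When H3K27ac regions were ordered by the mean percentile of fold in their 2 lists and parted into 5 groups of equal size (quintiles), the share on H3K4me3 went from 31.7% in the weakest quintile through 40.2%, 48.8% and 54.0% to 62.3% in the strongest. H3K4me3 did not climb evenly. Its share with H3K27ac was 35.4% in the weakest quintile, 33.5% in the next, then 38.1%, 46.5% and 57.6%. Among the 100 strongest regions of each mark, 73 of H3K4me3 and 84 of H3K27ac carried the other mark. At the 7171 sites where 1 region of each mark met, the folds of the marks ranked together only loosely, with a Spearman's rho of 0.27 across sites. These quintiles and sites share their samples and are descriptions.

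**Figure D2:**
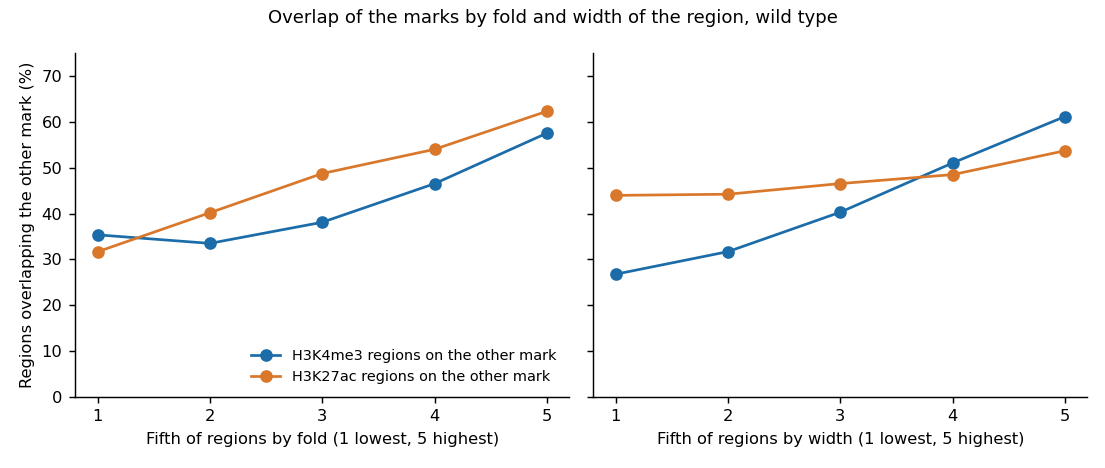
Share of replicated WT regions that overlap a region of the other mark, in percent, by quintile of fold (left) and by quintile of width (right), from lowest to highest. For H3K27ac the share climbs with fold from 31.7% to 62.3%. For H3K4me3 it climbs more steeply with width, from 26.8% to 61.2%.

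Width told more about H3K27ac at an H3K4me3 site than about H3K4me3 at an H3K27ac site. From the narrowest to the widest quintile of H3K4me3 regions, with median widths of 644 and 1778 bp, the share with H3K27ac went from 26.8% to 61.2%. Over the quintiles of H3K27ac width, with medians of 516 to 1489 bp, the share with H3K4me3 only went from 44.0% to 53.7%. A wider region has more bases in which to meet the other mark, and this was not corrected for. These are widths of merged regions, with medians of 871 bp for H3K27ac and 1109 bp for H3K4me3. The bases under both replicates had medians of 549 and 958 bp. The quintiles were not repeated on those bases, so the part of replicate disagreement in the flatter H3K27ac order was not tested. Requiring the overlap to span at least 50% of the shorter region left 46.4% of the H3K27ac and 41.3% of the H3K4me3 regions as shared.

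Replicated H3K4me3 regions were wider than replicated H3K27ac regions, with medians of 1109 and 871 bp. The middle 80% of the H3K4me3 regions spanned 644 to 1778 bp and of the H3K27ac regions 516 to 1488 bp. A merged region takes in the outermost edges of both replicates, which widened H3K27ac more. Counting only the bases under peaks of both replicates, the medians were 958 and 549 bp, and the ratio of H3K4me3 to H3K27ac went from 1.27 to 1.74. At sites with 1 region of each mark, H3K4me3 was the wider in 5649 of 7171 (78.8%), with a median ratio of 1.37.

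Regions that carried both marks were the wider ones in each mark. H3K4me3 regions had a median of 1255 bp with H3K27ac and 1015 bp without it. H3K27ac regions had medians of 898 and 847 bp with and without H3K4me3, a much smaller step. Wide regions were mostly H3K4me3 regions: 922 (5.37%) reached 2 kb, against 348 (2.26%) for H3K27ac. Of those 922, 620 carried H3K27ac. The 67 H3K4me3 regions with 2 H3K27ac regions had a median width of 2140 bp and, in contrast to their width, a median fold of only 7.56 and 7.49, below the 10.2 and 10.1 of the H3K4me3 regions with 1 H3K27ac region. The widest of them were 8:112666681-112670079 with 3399 bp, 10:79984025-79987383 with 3359 bp and 6:125468735-125472043 with 3309 bp.

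**Figure D3:**
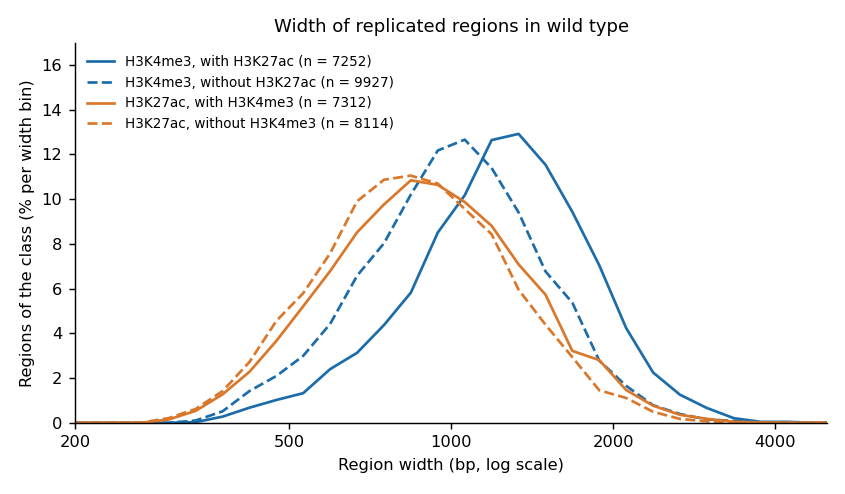
Distribution of the width of replicated WT regions, in percent of a class per width bin, on a log axis in bp. Solid lines are regions on the other mark and dashed lines regions without it. The H3K4me3 classes are set apart (medians 1255 and 1015 bp) while the H3K27ac classes nearly coincide (898 and 847 bp).

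The widest domains were not the strongest. The 3 widest regions with both marks were the only ones of 4 kb or more. Region 17:34336520-34340812 spanned 4293 bp with H3K4me3 folds of 3.44 and 3.33 and held 2297 bp of H3K27ac, with folds of 4.84 and 5.25. Region 11:3238837-3243077 spanned 4241 bp with H3K4me3 folds of 4.20 and 4.44 and 605 bp of H3K27ac. Region 10:42150056-42154074 spanned 4019 bp with folds of 3.31 and 3.81 and 913 bp of H3K27ac. All 3 lay under percentile 10 of H3K4me3 fold in the mean of both lists, so these domains were broad and low. Across H3K4me3 regions, fold was highest at middle widths: the median fold was 6.43 and 6.36 in the narrowest quintile, 10.98 in both replicates in the middle quintile, and 8.47 and 8.40 in the widest. For H3K27ac the median fold was 4.74 and 4.88 in the narrowest quintile, 5.73 and 5.82 in the fourth and 5.68 and 5.88 in the widest, so that only replicate 1 was lower in the widest.

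Wide H3K4me3 domains without H3K27ac also existed. The widest were 9:62248040-62252004 with 3965 bp and folds of 5.20 and 4.69, and 7:16515208-16518911 with 3704 bp and folds of 4.97 and 5.03. The next was 5:138978805-138982261 with 3457 bp and folds of 5.62 and 5.36. They lay 15.9, 67.99 and 51.7 kb from the nearest WT H3K27ac region. All 3 had a peak in both H3K27ac lists of del-cIDR. The widest H3K27ac regions without H3K4me3 were 6:91687117-91690269 with 3153 bp, 1:55146069-55149164 with 3096 bp and 7:15627352-15630251 with 2900 bp, and each lay within 10 kb of an H3K4me3 region, at 8.21, 3.43 and 5.23 kb.

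At shared sites the highest point of H3K27ac mostly lay inside the H3K4me3 region, but the H3K27ac region often reached beyond it. Of 7319 overlapping pairs, the H3K27ac region lay wholly within the H3K4me3 region in 51.1%, spanned it in 8.98% and overhung 1 side in 39.95%. The H3K27ac summit, the base of highest signal in the strongest peak, fell inside the H3K4me3 region in 96.2% of pairs. Over the H3K4me3 region it was spread more widely than the H3K4me3 summit. The edges of that region come from the H3K4me3 peaks, which favours a central H3K4me3 summit, so this order is no finding on H3K27ac. Parting each H3K4me3 region into 5 zones of equal width from its centre to its edges, the outer 2 zones held 16.4% and 7.66% of the H3K27ac summits inside, against 4.48% and 0.938% of the H3K4me3 summits of the 7252 H3K4me3 regions with H3K27ac. The median distance from the H3K27ac to the H3K4me3 summit was 165 bp. Between replicates of the same mark at these sites it was 35 bp for H3K4me3 and 114 bp for H3K27ac, so the offset between marks was above both and nearer to that of H3K27ac. In 13.5% of pairs the summits of the marks were over 500 bp apart, against 2.37% and 5.48% between replicates of H3K4me3 and H3K27ac.

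The strongest shared sites were chosen by fold in all 4 lists, so their height in both marks is a description. At 1:24651689-24652338 the H3K4me3 folds were 24.9 and 24.9 and the H3K27ac folds 28.1 and 29.9. At 8:19834519-19835353 they were 24.1 and 23.0 for H3K4me3 and 24.1 and 27.2 for H3K27ac. At 16:43589374-43590524, the highest H3K4me3 site of both lists, they were 28.5 and 26.7, with H3K27ac at 17.9 and 18.2. The other two were 8:20697853-20698630 and 4:145500895-145501716, with H3K4me3 folds of 22.6 to 25.5 and H3K27ac folds of 12.6 to 18.6. The sites on chromosomes 1 and 16 also had an H3K9me3 peak, a mark of heterochromatin, in both WT lists of that mark. Of the 100 strongest shared H3K4me3 regions, 7 had H3K9me3 in a WT list and 3 in both, against 1.25% of all shared H3K4me3 regions in a list. The step in a list was smaller for H3K4me3 regions without H3K27ac, at 3 of the 100 strongest against 1.31% of the class. In both lists the counts were close, at 2 of these 100 against 0.242% of the class. For the shared regions the class had 0.414%. The part of H3K9me3 in the height of the shared sites was not tested. Sites where reads map poorly were not filtered out here, and their part was not tested either.

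H3K4me3 without H3K27ac was nearly as strong at its top. Region 14:15224639-15225536 had folds of 26.4 and 25.1 and lay 3.30 kb from H3K27ac. Region 18:45156790-45157323 had folds of 22.9 and 24.7 at 124.6 kb from H3K27ac, and 12:55276923-55277732 had 21.8 and 21.1 at 71.4 kb. Neither of these last regions had an H3K27ac peak in a del-cIDR list, while all had H3K4me3 in both. Regions 13:66044886-66045340 and 3:93606685-93607571 had folds of 20.3 to 22.6. Both of these and 14:15224639-15225536 had an H3K27ac peak in both del-cIDR lists. Region 3:93606685-93607571 also had an H3K9me3 peak in both WT lists. Over the whole class, though, H3K4me3 was lower without H3K27ac, with median folds of 8.62 and 8.59 against 10.1 and 10.1 with it.

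The 5 strongest H3K27ac regions without H3K4me3 had folds of 14.4 to 27.2, and each had an H3K9me3 peak. At 9:35216540-35216887 the H3K27ac folds were 26.1 and 27.2, at 13:9061744-9062201 they were 22.0 and 22.2, and at 9:123290863-123291243 they were 17.4 and 17.6. The others were 4:146433382-146434143 with 16.1 and 14.96 and 8:20173435-20174636 with 15.7 and 14.4. H3K9me3 was found in both WT lists at 4 of these 5 and in 1 list at the region on chromosome 13. In del-cIDR, an H3K4me3 peak was found in both lists at 9:123290863-123291243, in 1 list at 8:20173435-20174636 and in none at the others. Among the 100 strongest of the class 14 had H3K9me3 in a WT list, against 3.40% of the class. The 100 strongest H3K27ac regions on H3K4me3 had it in 16, against 1.15% of their class. Counted in both WT lists, H3K9me3 was at 8 of the 100 strongest off H3K4me3, against 0.900% of that class. On H3K4me3 it was at 15 of the 100 strongest, against 0.397%. Leaving out every region with an H3K9me3 peak in a WT list changed the overlap little: 47.98% of the H3K27ac regions were then on H3K4me3, and 42.2% of the H3K4me3 regions on H3K27ac. As a class, H3K27ac without H3K4me3 was weaker, with median folds of 5.05 and 5.10 against 5.67 and 5.81 on H3K4me3.

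H3K27ac regions off H3K4me3 were mostly far from it. Their median distance to the nearest H3K4me3 region, counted between edges, was 21582 bp, with the middle 80% from 3155 to 175330 bp. Few lay just outside: 187 of all H3K27ac regions (1.21%) were within 1 kb of an H3K4me3 region without touching it, 1142 (7.40%) at 1 to 5 kb and 1138 (7.38%) at 5 to 10 kb. The largest class was 10 to 50 kb with 3274 (21.2%), followed by 981 (6.36%) at 50 to 100 kb and 1392 (9.02%) beyond 100 kb. Together 36.6% of the H3K27ac regions were more than 10 kb from H3K4me3. H3K4me3 regions were as a rule farther from H3K27ac, with a median of 33282 bp for those without it and 45.6% of all beyond 10 kb. In single lists the share of peaks beyond 10 kb was 46.4% and 43.7% for H3K27ac and 46.7% and 46.8% for H3K4me3, so that the H3K4me3 lists were the higher by a little. Here too the SD leaves out the spread of the regions of the other mark. The means were 45.1% ± 1.90 and 46.8% ± 0.04997 (SD, n = 2 each, exact permutation p = 0.333). The size of this difference depended on the peaks used. With peaks of a −log10 q of at least 5 the means were 38.5% for H3K27ac and 62.3% for H3K4me3. With all lists cut to 19055 peaks they were 40.6% and 51.0%. With either H3K27ac replicate left out, H3K27ac was the higher by 6.85 to 11.7 points, because a single H3K27ac list then serves as the target of the H3K4me3 peaks.

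**Figure D4:**
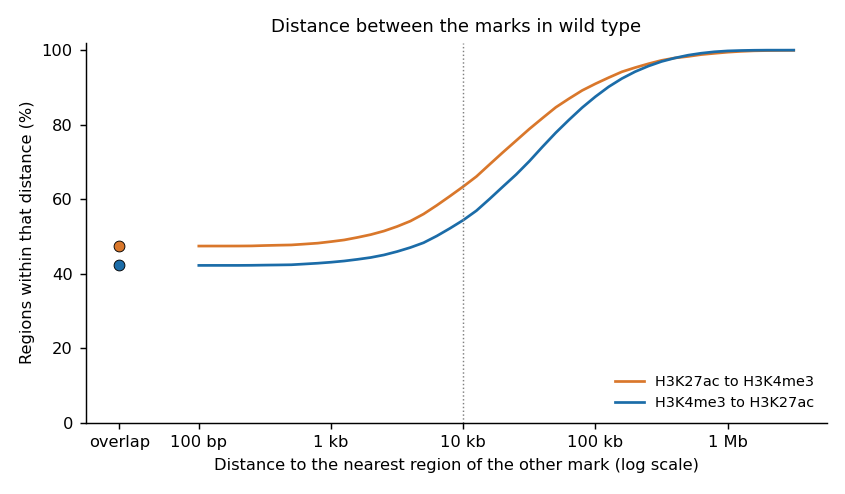
Cumulative share of replicated WT regions, in percent, by distance to the nearest region of the other mark (log axis). Dots give the share that overlaps, 47.4% of H3K27ac and 42.2% of H3K4me3 regions, and the dotted line marks 10 kb, beyond which 36.6% and 45.6% lie.

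Among the H3K27ac regions off H3K4me3, the signal was higher the farther away they lay. The median fold was 4.04 and 4.18 in the 2 replicates within 1 kb, 4.37 and 4.52 at 1 to 5 kb, 4.77 and 4.80 at 5 to 10 kb, and 5.08 and 5.13 at 10 to 50 kb. It was 5.31 and 5.39 at 50 to 100 kb and 5.85 and 5.82 beyond 100 kb, about the 5.67 and 5.81 of the regions on H3K4me3. Both replicates showed this order at each step. An H3K9me3 peak in a WT list was found at 1.15% of the regions on H3K4me3. It was found at 0.535% within 1 kb, 1.84% at 1 to 5 kb and 1.32% at 5 to 10 kb, with no steady order. Farther out it was found at 3.05% at 10 to 50 kb, 3.57% at 50 to 100 kb and 7.47% beyond 100 kb, and its part in the fold was not tested. H3K4me3 regions off H3K27ac had a shorter climb. Their median fold was 5.55 and 6.02 within 1 kb, 6.91 and 6.86 at 1 to 5 kb and 8.63 and 8.46 at 5 to 10 kb, and 8.78 to 9.07 in the 3 classes beyond.

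The remotest H3K27ac regions lay in an H3K4me3 desert. Regions 15:19377667-19378170, 15:19391886-19392328 and 15:18533867-18534320 were 5985934, 5971776 and 5360001 bp from any replicated H3K4me3 region. Their H3K27ac folds were 8.35 and 7.42, 6.04 and 4.35, and 5.27 and 5.03. Region 15:19391886-19392328 also had an H3K9me3 peak in 1 WT list. The stretch around them, 15:13173866-25364104, was the longest without a replicated H3K4me3 region, at 12.2 Mb. It held 20 H3K27ac regions and a single H3K4me3 peak in each list. The next H3K4me3 deserts, 6:74341197-81900629 and 14:87654876-93452350, measured 7.56 and 5.80 Mb and held 6 H3K27ac regions each. The longest stretch without a replicated H3K27ac region was shorter, 16:78288286-84531869 with 6.24 Mb, and held 3 H3K4me3 regions. It held 5 H3K27ac peaks of replicate 1 and 0 of replicate 2.

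Neighbouring regions of the same mark were about equally spaced. The median gap between neighbours was 41980 bp for H3K4me3 and 40730 bp for H3K27ac. The spread was wider for H3K27ac: its gaps ran from 5560 to 377448 bp over the middle 80%, and those of H3K4me3 from 7018 to 307081 bp. Gaps under 1 kb made up 2.08% for H3K27ac against 1.17% for H3K4me3, and gaps of 1 to 10 kb 17.5% against 14.7%. Gaps of 100 kb or longer were also the larger share for H3K27ac, 30.2% against 27.8%. In single lists the median gaps were 27268.5 and 28790 bp for H3K27ac and 37129.5 and 36580 bp for H3K4me3, with means of 28029.2 ± 1076 and 36854.8 ± 389 bp (SD, n = 2 each, exact permutation p = 0.333). The order of the gaps changed with the peaks used. With peaks of a −log10 q of at least 5 the ratio of the replicated gaps, H3K27ac over H3K4me3, went from 0.970 to 1.61, and with lists of equal length to 1.10.

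Many H3K27ac regions without H3K4me3 had no other H3K27ac region within 10 kb. The same share over all H3K27ac regions was not computed, so this cannot be called particular to the class. Another H3K27ac region lay within 10 kb of 2953 of the 8114 (36.4%), and the nearest one was a median of 17163 bp away. For 4040 of them (49.8%) the nearest other H3K27ac region was closer than the nearest H3K4me3 region. Beyond 10 kb from H3K4me3 this was 3291 of 5647 (58.3%), a share that choosing regions far from H3K4me3 favours by construction. Of these 5647, 1248 (22.1%) had another H3K27ac region within 10 kb.

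By chromosome, the densities of the marks ranked closely together, though not in the same order. Over the 2402.5 Mb between the first and last peak of each chromosome, replicated H3K4me3 regions numbered 7.15 per Mb and H3K27ac regions 6.42 per Mb. Their ratio was 0.898, and 0.569 with only peaks of a −log10 q of at least 5. Chromosome 11 was densest in both, at 11.7 and 10.5 per Mb, and chromosome 3 the sparsest, at 5.02 and 4.74. Across the 19 chromosomes the densities had a Pearson's r of 0.94 and a Spearman's rho of 0.94, as a description, since all chromosomes share the same samples. In single lists both H3K27ac replicates were denser than both H3K4me3 replicates on 19 of 19 chromosomes. Over replicated regions H3K27ac was denser on 3 only: chromosome 6 with a ratio of 1.09, and chromosomes 1 and 16 with 1.001 and 1.002. The lowest ratios were 0.785 on chromosome 19 and 0.809 on chromosome 5. Chromosome 19 also had the highest share of H3K27ac on H3K4me3, 54.0%, next to 53.9% on chromosome 17, and chromosomes 1 and 6 the lowest, 42.7% and 42.9%. The share of H3K4me3 with H3K27ac ran from 36.2% on chromosome 15 to 47.2% on chromosome 16.

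**Figure D5:**
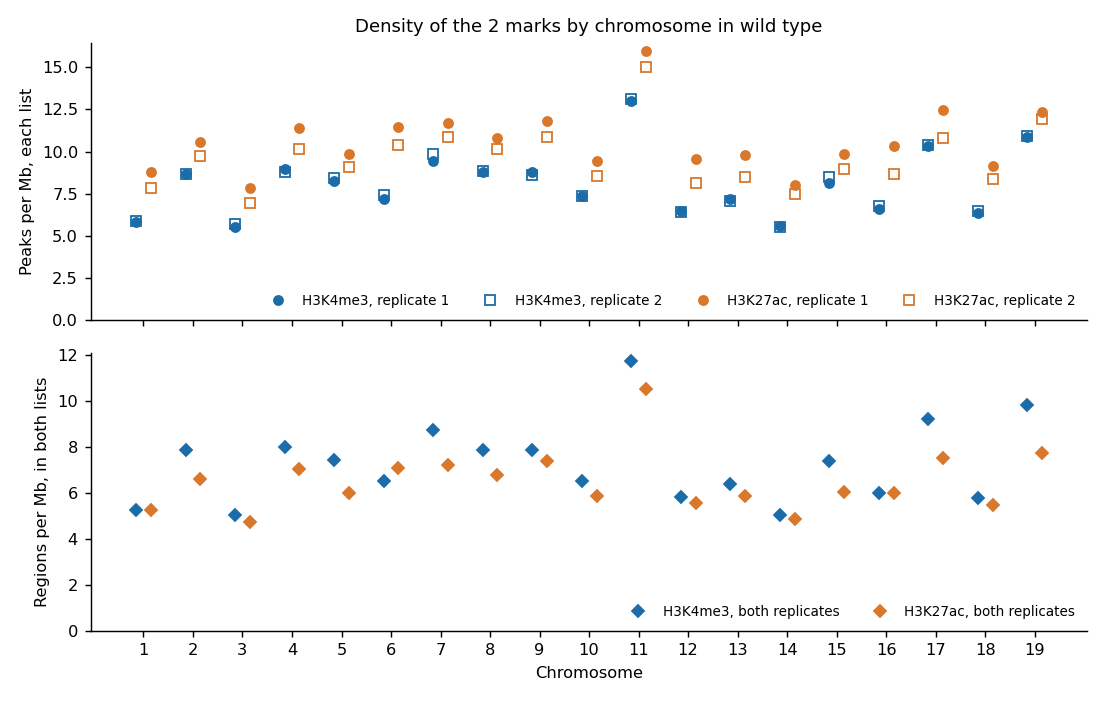
Density by chromosome in WT: peaks per Mb in each list (top, 2 replicates a mark) and replicated regions per Mb (bottom). H3K27ac lies above H3K4me3 on all 19 chromosomes in single lists, and on 3 of them once both replicates are required.

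In windows of 1 Mb the marks gathered in the same places. Of 2412 windows 1917 held both marks, 148 only H3K4me3, 160 only H3K27ac and 187 neither. The counts had a Pearson's r of 0.83 and a Spearman's rho of 0.86 across windows, with the same limit. The densest 10% of windows held 36.3% of the H3K4me3 and 32.6% of the H3K27ac regions, and 155 of these 241 windows were the same for both marks. The window at 97 to 98 Mb of chromosome 11 had the most H3K4me3 regions, 53, with 32 of H3K27ac. Those at 85 Mb of chromosome 8 and 80 Mb of chromosome 10 had 49 and 48 H3K4me3 regions with 22 and 23 of H3K27ac. H3K27ac peaked at 133 Mb of chromosome 4 with 37 regions and at 27 Mb of chromosome 7 with 35, where H3K4me3 had 41 and 39.

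Windows with an excess of H3K27ac looked different. At 88 to 89 Mb of chromosome 11 there were 35 H3K27ac regions, 29 of them off H3K4me3, and 12 H3K4me3 regions. The lists there held 50 and 53 H3K27ac peaks and 16 and 19 H3K4me3 peaks. The window was chosen by its excess of regions with a peak in both replicates, so these counts are no separate support. At 20 to 21 Mb of chromosome 2, 19 of 21 H3K27ac regions lay off H3K4me3 beside 3 H3K4me3 regions, and at 66 to 67 Mb of chromosome 13, 21 of 31 beside 13.

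The 4 del-cIDR samples, whose peaks chose none of these regions, held most of them again. Both del-cIDR lists of the same mark had a peak at 93.8% of the H3K4me3 regions with H3K27ac and 88.4% of those without. For H3K27ac the shares were 93.6% on H3K4me3 and 76.2% off it. Regions with both marks were thus the ones seen most often again in either mark. Built in the same way, the del-cIDR samples gave 16811 H3K4me3 and 20082 H3K27ac regions, of which 55.8% and 47.2% carried the other mark, against 42.2% and 47.4% in WT. The share beyond 10 kb was 37.6% of the H3K27ac regions, against 36.6%. Single del-cIDR lists had 53.5% and 53.4% of the H3K4me3 peaks on H3K27ac, against 40.4% in both WT lists. Their H3K27ac lists were also longer, at 27883 and 32353 peaks, and the part of list length in this difference was not tested.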

How the data were processed

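The submitters' processing notes name MACS2, featureCounts, BWA, fastp, Picard and SAMtools, and the build GRCm39. For versions, settings and any control library the status is: not given in the sources used here. The authors deposited 1 peak list per sample, with a fold enrichment (a ratio), the −log10 of the p-value and q-value, and a summit per peak, and no read counts. Depth is therefore unknown, intervals for counting error could not be given, and fold was ranked only within a list. Peaks on X, Y, the mitochondrial genome, unplaced sequences and a sequence named dm were left out. No filter for sites where reads map poorly was applied to the lists.

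Peaks of 2 replicates sharing at least 1 bp were merged and regions with a peak in both were kept. Distances run between edges, and density uses the span from the first to the last peak of a chromosome in any of the 12 lists. For 6 quantities, with 1 value a list, the marks were set against each other by two-sided exact permutation, with Benjamini-Hochberg adjustment. For the shares of peaks on the other mark or beyond 10 kb from it, the regions of the other mark were not rebuilt in the permutation. Regions are not replicates and were not tested. Analyses used Python 3.11.15, numpy 2.4.6 and scipy 1.17.1, and the interval functions were tested on simulated data. Per class, the regions named are the 5 highest in mean percentile of fold (over all 4 lists for regions with both marks) and the 3 widest, with the 3 remotest H3K27ac regions, the 3 H3K4me3 regions with most H3K27ac regions inside and the 3 windows of 1 Mb densest in each mark or in H3K27ac excess. Deserts were chosen after their values were seen. The members and lists were chosen with earlier results of these data known. Alternatives were a minimum −log10 q of 5, equal list lengths, adding X and Y, merging within 1000 bp, other definitions of overlap, width and distance, leaving out each sample, and pairing by replicate number. The 2 replicate numbers are shared between marks without a stated pairing. Gene tables on another build were not used.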

Additional observations from a re-analysis of the deposited data

Results flagged for a closer look

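Peaks were also deposited on a sequence named dm, which the comparisons leave out and the labels do not explain. The H3K4me3 lists of WT held 872 and 774 peaks on it in replicates 1 and 2, which is 4.24% and 3.74% of those lists. The H3K27ac lists held 12 and 20, or 0.0464% and 0.0853%. Their median fold was 5.13 and 5.03 for H3K4me3 and 4.26 and 4.86 for H3K27ac. These peaks lie in data outside the comparisons, and the cause of the difference between marks was not tested.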

How the results depend on the processing

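H3K4me3 peaks stayed wider than H3K27ac peaks, and the H3K4me3 lists stayed larger in covered length, under every alternative run. Several other comparisons turned with the peaks used, and the cause was not tested. With only peaks of a −log10 q of at least 5, H3K27ac minus H3K4me3 became -4693.5 peaks, 9968.75 bp of median gap between peaks and 18.7 points of overlap, and the ratio of region gaps became 1.61. In that setting the density ratio was 0.569, the width ratio 1.15, the H3K27ac regions 8816, the distance 23586 bp, and the overlap 50.4% of H3K27ac and 28.5% of H3K4me3 regions. With lists cut to 19055 peaks, numbers are equal by construction, the overlap difference was 5.74 points, the gap ratio 1.10, the density ratio 0.780, and the overlap 49.7% of H3K27ac and 38.5% of H3K4me3 regions. Merging peaks within 1000 bp gave an overlap of 43.4% of H3K4me3 regions, and bases under both replicates a width ratio of 1.74. Of the values recomputed with all 4 samples, 6 reversed, 11 moved without reversing and 47 had neither label. A move was a change beyond the spread between replicates or, for numbers of regions, by a larger factor than the limit set. Differences between single lists were judged by sign alone, so a change of size left them among the 47. Among them, the difference in peaks beyond 10 kb went from -1.69 points to -23.8 at a −log10 q of at least 5. With equal list lengths it was -10.5 points. Pairing by replicate number leaves each value unchanged and is also counted there.

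Leaving out 1 sample replaces the replicated set of its mark by a single list, which by construction holds more regions. The H3K27ac regions then numbered 15426 to 25153, the density ratio ran from 0.802 to 1.46 (1.33 and 1.46 without an H3K27ac replicate), the gap ratio from 0.650 to 1.11 (above 1 without either H3K4me3 replicate) and the width ratio from 1.11 to 2.03. Overlap ran from 36.3% to 50.6% of H3K27ac and 40.4% to 51.9% of H3K4me3 regions, the distance from 19729 to 24533 bp, and the H3K27ac share beyond 10 kb from 33.0% to 46.4%. The difference in peaks beyond 10 kb ran from -5.15 to 11.7 points and that in overlapping peaks from -13.4 to -0.269. With the replicate number as a replicate block, the difference of 4833 peaks stayed, with an exact p = 0.5, the smallest that 2 pairs allow. Depth is unknown, so missed weak sites cannot be told from absent ones.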
